A study of Nannochloropsis oceanica with 12 samples.

Results

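The strongest lactyllysine peaks of nitrogen-deprived Nannochloropsis oceanica are described here. They are the 148 of 5375 listed peaks whose mean in deprived cells was at least 9 on the log2 scale, that is 512 normalised reads or more, while their mean in replete cells was under 4, that is under 16. The members were chosen by these group means of the authors' deposited table, so the contrast of deprived with replete levels is given as a description with no test. The comparison peaks are the 4531 listed peaks with the same replete ceiling and a deprived mean under 9. Another 33 peaks passed the deprived threshold with a replete mean of 16 or more and belong to neither set. A normalised read is a read after the authors' scaling between libraries, and every peak is 401 bp wide.

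Nannochloropsis oceanica strain IMET1 is a unicellular marine alga that stores triacylglycerol when nitrogen is scarce. Both conditions started at an OD750 of 2.5 in 800 mL, as triplicate cultures from washed cells, and differed for 72 hours in whether the f/2 medium contained nitrogen. Light was continuous at 50 µmol per square metre and second in both, with 1.5% CO2 at 25 °C. All samples were fixed with 1% formaldehyde. The results rest on 3 anti-L-lactyllysine ChIP libraries of deprived cells and 3 of replete cells. The series also holds 6 libraries made without antibody, whose values were not analysed here.

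Lactylation joins a lactyl group, derived from lactate metabolism, to lysine side chains. On histones it belongs to the acylations that link metabolism to chromatin, and in mammalian cells it has been found at promoters of active genes. The antibody recognises lactyllysine on any protein, so a ChIP peak marks DNA crosslinked to lactylated protein, histone or other. The peaks were not assigned to genes and no sequence is shown, since the sources used here do not name the build behind the coordinates.

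Whole reads per library were recovered from the group means, and each condition's libraries are labelled A, B and C because nothing in the deposited table says which replicate each one is. The listed peaks held between 1351261 and 1620064 reads in the deprived libraries, against 89564 in replete library A, 30954 in B and 19082 in C. Replete library A therefore stands apart in depth within peaks, and each replete value below is given by library. After the authors' scaling the deprived group had 35.2 times as many normalised reads in the listed peaks as the replete group. Of 5389 tested peaks, 99.7% passed the authors' FDR of 0.05, and 98.9% passed it as higher in deprived cells, so the presence of all 148 members in that second set says nothing particular about them.

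The strongest peaks had a median deprived mean of 556 normalised reads, with quartiles of 530.0 and 593 and a range from 512 to 1049. The comparison peaks had a median of 260.2 and quartiles of 193 and 344. Most members lay close to the threshold. Of the 148 members, 84 had a mean of at least 550 normalised reads, 34 of at least 600, 17 of at least 650, 5 of at least 700 and 1 of at least 800. The members were thus the upper edge of a continuous distribution, and no gap in level set them off from the comparison peaks.

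**Figure D1:**
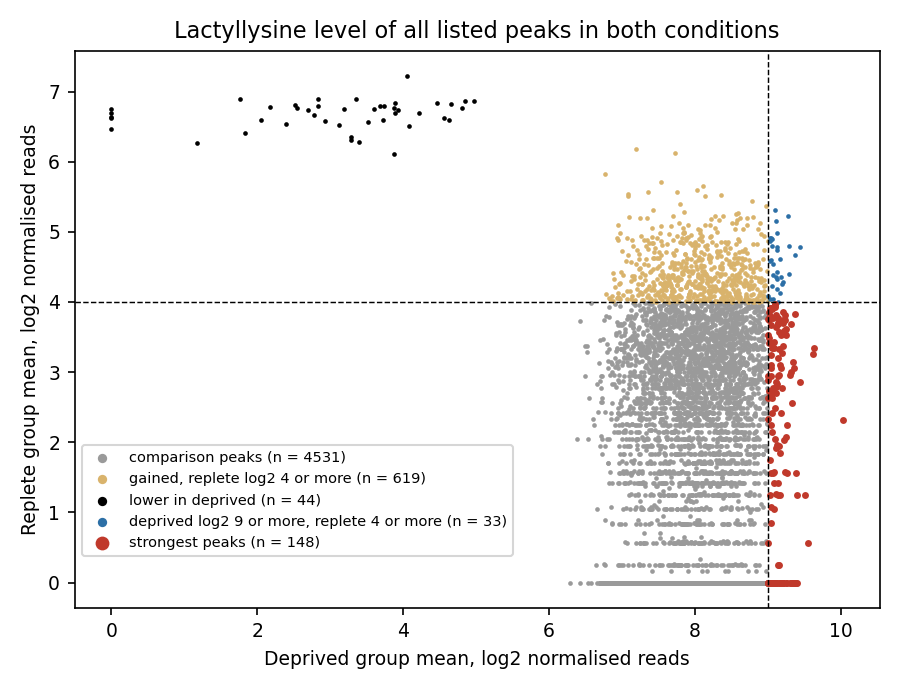
Each point is 1 of the 5375 listed peaks, with the deprived group mean on the horizontal and the replete group mean on the vertical axis, both as log2 normalised reads, and dashed lines at the thresholds of 9 and 4. The 148 strongest peaks (red) continue the cloud of the 4531 comparison peaks (grey) to the right, and 1 of them stands at a deprived mean of 1049 normalised reads, far from the others.

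Values just inside and just outside the threshold were nearly the same. Just inside were peak_2605 on chromosome 21 from 351540 to 351940, peak_2974 on chromosome 24 from 352460 to 352860 and peak_3649 on chromosome 3 from 677685 to 678085. Their deprived means were 512.4, 512.6 and 512.6 normalised reads. Just outside were peak_1773 on chromosome 17 from 681426 to 681826, peak_3967 on chromosome 4 from 468371 to 468771 and peak_2223 on chromosome 2 from 790604 to 791004. Their deprived means were 511.3, 511.0 and 510.8 normalised reads. These steps were smaller than the spread between libraries, which was 15.7 normalised reads (SD, n = 3) in peak_2605 and 32.6 in peak_1773.

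The 10 highest members were found on 7 of the 30 chromosomes. The highest was peak_4677 on chromosome 6 from 1282626 to 1283026, with 1097, 1020 and 897 reads in deprived libraries A, B and C, or 1049 ± 30.0 normalised reads (SD, n = 3). Its replete libraries had 8, 0 and 7 reads. It was the highest member in every deprived library, at 1063, 1068 and 1014 normalised reads.

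The second and the third were peak_2486 on chromosome 20 from 477825 to 478225 and peak_3874 on chromosome 30 from 374497 to 374897. Peak_2486 had 763, 822 and 696 deprived reads, or 796 ± 61.1 normalised reads (SD, n = 3), and 19, 15 and 0 replete reads. Peak_3874 had 888, 647 and 729 deprived reads, or 788 ± 97.0 normalised reads (SD, n = 3), and 19, 13 and 0 replete reads. Their difference of mean was far below either SD, so their order is not resolved. Both had reads in replete libraries A and B and none in C.

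Next came peak_5172 on chromosome 9 from 112054 to 112454, at 751 ± 6.68 normalised reads (SD, n = 3), and peak_73 on chromosome 1 from 433725 to 434125, at 730.0 ± 46.8 (SD, n = 3). Peak_5172 had 5 reads and peak_73 had 8 reads in replete library A, and both had 0 in B and C. Peak_853 on chromosome 12 from 701391 to 701791 reached 697 ± 51.9 normalised reads (SD, n = 3) and had 7, 0 and 14 replete reads.

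The other 4 lay between 670.4 and 677 normalised reads, a range narrower than the SD of 3 of them. Peak_5382 on chromosome 9 from 1144778 to 1145178 had 737, 594 and 614 deprived reads, or 677 ± 48.5 normalised reads (SD, n = 3). Peak_5339 on chromosome 9 from 906431 to 906831 had 725, 611 and 603, or 675 ± 32.0 normalised reads (SD, n = 3). Peak_4714 on chromosome 7 from 236168 to 236568 had 693, 640 and 592, or 670.5 ± 1.26 normalised reads (SD, n = 3). Peak_4911 on chromosome 7 from 1188651 to 1189051 had 740, 594 and 594, or 670.4 ± 47.6 normalised reads (SD, n = 3). Peak_5382 and peak_4911 had 0 reads in every replete library, whereas peak_5339 had 8 and peak_4714 had 10 reads in replete library A only.

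Across all members the deprived libraries had similar levels. Deprived library A ranged from 496 to 1097 reads per member with a median of 598.5, library B from 446 to 1020 with a median of 514.5, and library C from 397 to 897 with a median of 498.5. On the normalised scale the medians were 580.2, 539 and 564. All 3 libraries reached 512 normalised reads in 94 members, 2 of 3 in 48 members and 1 of 3 in 6 members. Among comparison peaks, 81 reached that level in 1 deprived library, 11 in 2 and 0 in 3. The rule on the mean fixes that no comparison peak reaches it in all 3 and that every member reaches it in at least 1.

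Library B was the one most often below the threshold. It reached 512 normalised reads in 76.4% of the members, against 95.3% for A and 87.8% for C, and it was the lowest of the 3 in 99 of 148 members. The same library was the lowest in 2570 of the 4531 comparison peaks. When the deprived libraries were given equal totals over all listed peaks, the shares of members were 87.8% in A, 90.5% in B and 85.8% in C, and the low standing of B was gone.

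The spread between deprived libraries was smaller in the strongest peaks than in the comparison peaks. The median coefficient of variation of normalised reads was 6.02% over the members (range 0.188% to 15.8%) and 9.19% over the comparison peaks. It was 5.61% over the 33 peaks past the deprived threshold with a replete mean of 16 or more. The smaller spread was thus not particular to the members. The relative SD expected from counting error alone had a median of 4.36% at the members' read counts and of 6.38% at those of the comparison peaks. A coefficient of variation taken from 3 libraries has a median below the expected relative SD. The gap to counting error is therefore larger than these values show. The libraries come from separate cultures, whose own differences are part of the spread. With equal totals of the deprived libraries over the listed peaks the median coefficient of variation was 4.61% over the members and 8.33% over the comparison peaks. The most variable members were peak_4637 on chromosome 6 from 1063059 to 1063459, with 711, 498 and 477 reads, and peak_540 on chromosome 11 from 103906 to 104306, with 666, 478 and 481 reads. In both of them library A was high and the other libraries were close together. The least variable were peak_4714 and peak_3649, at 0.188% and 0.666%.

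**Figure D2:**
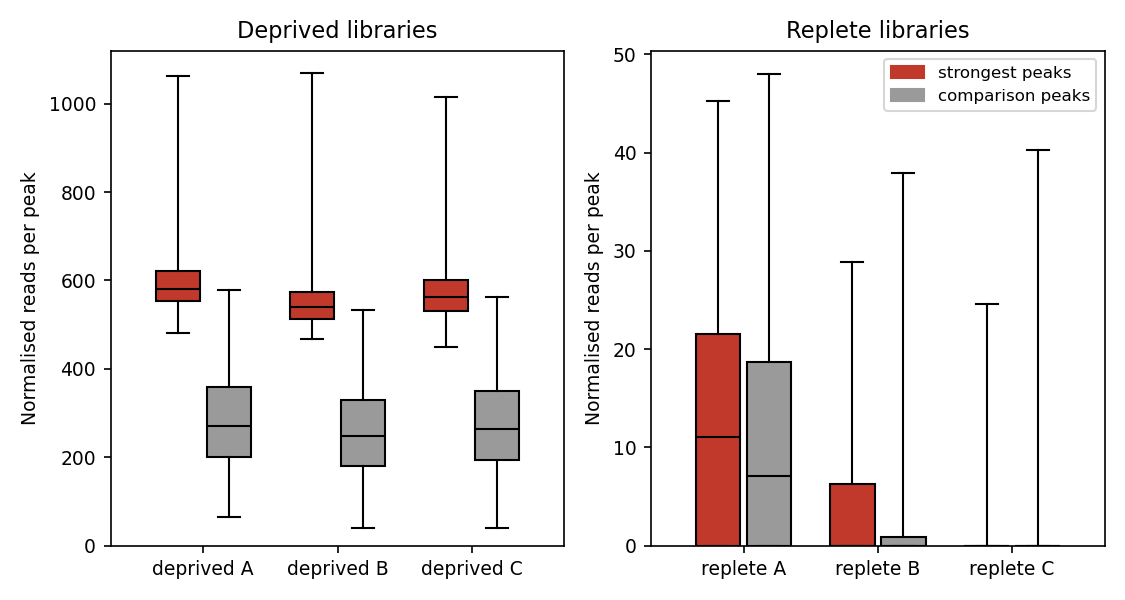
Boxes show normalised reads per peak in each library for the 148 strongest (red) and 4531 comparison peaks (grey), with the median as a line, the quartiles as box ends and the lowest and highest peak as whiskers. The 3 deprived libraries gave members similar medians (580.2, 539 and 564 normalised reads), while the medians of replete libraries B and C are 0 in both sets.

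The replete ceiling is part of the rule, so the strongest peaks could carry only few reads in replete cells. Most of the reads they carried came from library A. That was not particular to the members. Over all listed peaks A held 89564 replete reads, against 30954 in B and 19082 in C. Members had 0 to 51 reads in replete library A (median 12.5), 0 to 32 in B (median 0) and 0 to 22 in C (median 0). Comparison peaks had medians of 8, 0 and 0 reads. Where a library had any reads in a member, the median was 20 reads in A (109 members), 10 in B (55 members) and 9 in C (24 members). The corresponding medians of comparison peaks were 17 reads in A (2956 peaks), 9 in B (1186 peaks) and 7 in C (810 peaks).

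The replete mean was listed at 0, which stands for a mean under 1, in 34 of 148 members or 23.0% (exact Clopper-Pearson 95% interval 16.5% to 30.6%). It was listed at 0 in 1394 comparison peaks or 30.8% (29.4% to 32.1%). The members' share was the lower, the intervals overlap, and the difference was not tested, because the replete mean is part of the rule. All intervals treat the peaks as independent draws, and they do not cover the spread between libraries or cultures. The order did not hold across the members. In those under 609 normalised reads, 25 of 121 were listed at 0 (20.7%, interval 13.8% to 29.0%). In those above it, 9 of 27 were (33.3%, interval 16.5% to 54.0%), close to the comparison peaks. Without replete library A the shares were 56.7% of members and 62.7% of comparison peaks.

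All 3 replete libraries stood at 0 reads in 26 members (17.6%, exact Clopper-Pearson 95% interval 11.8% to 24.7%) and in 1153 comparison peaks (25.4%, interval 24.2% to 26.7%). The other 8 members listed at 0 had a mean above 0 and under 1 normalised read. The sources used here do not say whether a background was subtracted before the means were made, so a recovered 0 is no proof that the library lacked reads there.

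The replete libraries with reads were counted in each peak. Reads were seen in 1 replete library in 66 members (44.6%) and 44.6% of comparison peaks, in 2 in 46 members (31.1%) and 25.1%, and in all 3 in 10 members (6.76%) and 4.81%. Library A was the only replete library with reads in 54 members, B in 9 and C in 3. A and B together had reads in 35 members, A and C in 10, and B and C in 1. By library, A stood at 0 in 26.4% of members and 34.8% of comparison peaks, B in 62.8% (exact Clopper-Pearson 95% interval 54.5% to 70.6%) and 73.8% (interval 72.5% to 75.1%), and C in 83.8% and 82.1%. The share of zeros was thus lower for members in A and B, with intervals that do not overlap in B, and in C the order was the other way. These differences were not tested, because the replete mean is part of the rule.

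The replete reads were averaged by class of the deprived mean, and the averages were highest just above the threshold. Over all peaks that were higher in deprived cells, with no replete ceiling, replete library A averaged 14.8 reads per peak where the deprived mean was under 181 normalised reads, 15.7 from there to 256, 15.2 from there to 362 and 16.4 from there to 512. It averaged 20.5 reads from 512 to 609 and 17.8 above. Library B averaged between 4.55 and 5.29 reads in the 4 lower classes, then 8.06 and 5.25. Library C averaged between 2.63 and 3.41 in the lower classes, then 4.03 and 3.34. The mean deprived level rose from 148 to 675 normalised reads over the same 6 classes. That range is set by the cuts on the deprived mean, so it is no measure against which to judge the replete range. In each library the replete average was highest from 512 to 609 and lower again above it. The class from 512 to 609 holds 149 peaks and the one above it 32, and the differences were not tested.

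**Figure D3:**
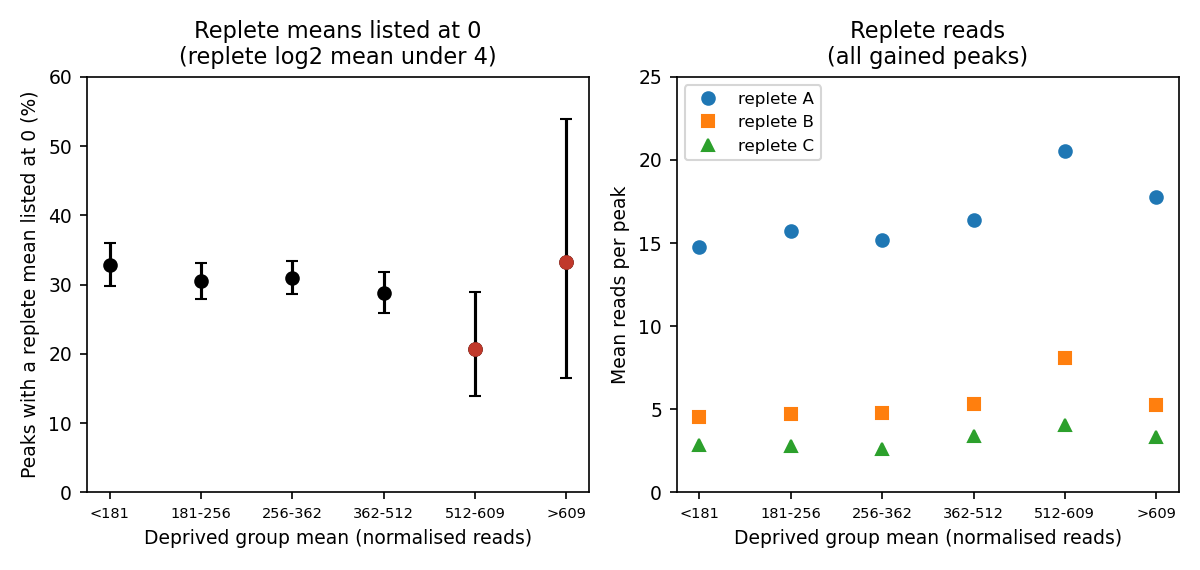
The left panel plots the share of peaks (%) with a replete mean listed at 0 among peaks with a replete mean under 16, by class of the deprived mean, with exact 95% intervals and the strongest peaks in red. The right panel plots the mean reads per peak in each replete library over all peaks higher in deprived cells, where library A stays between 14.8 and 20.5 reads.

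Peaks with a replete mean of 16 or more made up 18.2% of the 181 peaks at or above the deprived threshold (exact Clopper-Pearson 95% interval 12.9% to 24.6%). They made up 12.02% of the peaks below it that were higher in deprived cells (interval 11.1% to 12.9%). The replete ceiling therefore removed 33 strong and 619 weaker peaks, and the difference in share was not tested. Together the 181 peaks, which are 3.37% of those listed, held 6.84%, 6.91% and 6.83% of the deprived reads of libraries A, B and C and 4.05%, 4.42% and 3.71% of the replete reads. The 148 members, 2.75% of those listed, held 5.61%, 5.70% and 5.59% of the deprived reads and 2.50%, 2.06% and 1.24% of the replete reads, shares that the ceiling itself lowers.

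The members with the highest replete means show what the ceiling admits. Peak_991 on chromosome 13 from 326093 to 326493 had 3, 22 and 22 replete reads, a mean of 15.7 normalised reads, against 638, 502 and 442 in deprived cells. Peak_2194 on chromosome 2 from 676610 to 677010 had 18, 9 and 20, and peak_4298 on chromosome 5 from 709148 to 709548 had 31, 20 and 0. Library A, the replete library with the most reads in listed peaks, was the lowest in peak_991. The largest counts in a single library were the 51 reads of A in peak_4211 on chromosome 5 from 302005 to 302405, the 32 of B in peak_4329 on chromosome 5 from 845105 to 845505 and the 22 of C in peak_1669 on chromosome 17 from 124938 to 125338. Peak_991 had the same 22 reads in C. Peak_4211 had 0 reads in replete libraries B and C.

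Just above the ceiling were peak_1909 on chromosome 18 from 719584 to 719984, with 50, 4 and 0 replete reads, peak_3604 on chromosome 3 from 453020 to 453420, with 10, 10 and 28, and peak_3056 on chromosome 25 from 165054 to 165454, with 34, 10 and 9. Their replete means were 16.01, 16.4 and 16.4 normalised reads. Peaks on either side of the ceiling again differed by less than their replete libraries did.

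The size of the difference between conditions rests on the scaling. Among the 122 members with any replete reads, the ratio of deprived to replete means was at least 34.5, with a median of 78.8 and quartiles of 49.7 and 158. Where all replete libraries were at 0, the deprived mean was at least 530-fold to at least 698-fold above the floor of 3 reads over the replete libraries, which is 0.969 normalised reads on average. If both conditions are given the same total of normalised reads in the listed peaks, the median ratio becomes 2.24 with quartiles of 1.41 and 4.50, and 4 of the 122 ratios fall below 1. The bounds then run from 15.04-fold to 19.8-fold. Equal totals remove any difference in total signal, and which scaling is nearer to the chromatin was not tested. The rule sets a lower limit on every ratio and bound of the members, so these values are no test of a gain. Among the 3378 comparison peaks with any replete reads the median ratio was 43.1. With equal totals it was 1.22, and 1358 of these ratios fell below 1. The lower deprived means of the comparison peaks are also part of the rule.

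The strongest peaks lay on all 30 chromosomes. The count per chromosome ran from 1 to 12 with a median of 4. There were 46 members on the 16 chromosomes with 1 to 4, another 90 on the 13 chromosomes with 5 to 9, and 12 on chromosome 20. Members made up 3.16% of both sets combined (exact Clopper-Pearson 95% interval 2.68% to 3.71%). The interval of the chromosome's own share held this value on 29 of 30 chromosomes. The lowest share was 1 of 76 peaks on chromosome 28, or 1.32% (interval 0.0333% to 7.11%), where the member was peak_3365 from 149033 to 149433 at 564 normalised reads.

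Chromosome 20 had the highest share, 12 of 123 peaks or 9.76% (exact Clopper-Pearson 95% interval 5.14% to 16.4%), which is 14.6 members per Mb between its outermost listed peaks. Chromosome 29 was next in share with 6 members, 7.06% (interval 2.63% to 14.7%), or 10.4 per Mb. Chromosome 20 was singled out after its count was seen, as the highest of 30, and no test was made. The median deprived mean of its peaks that were higher in deprived cells was 256.04 normalised reads, within the range of 241 on chromosome 16 to 293 on chromosome 24. The share was high in each deprived library. Peaks of at least 512 normalised reads made up 11.6% of the 138 such peaks on chromosome 20 in library A, 8.70% in B and 9.42% in C, against 4.52%, 2.68% and 3.81% over all chromosomes, and chromosome 20 ranked first of 30 in each library. These libraries are the ones that chose the members. With a deprived log2 mean of at least 9.2 the share on chromosome 20 was 4.88%, against 0.983% over all chromosomes. Its 12 members had 4 with 0 reads in every replete library.

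**Figure D4:**
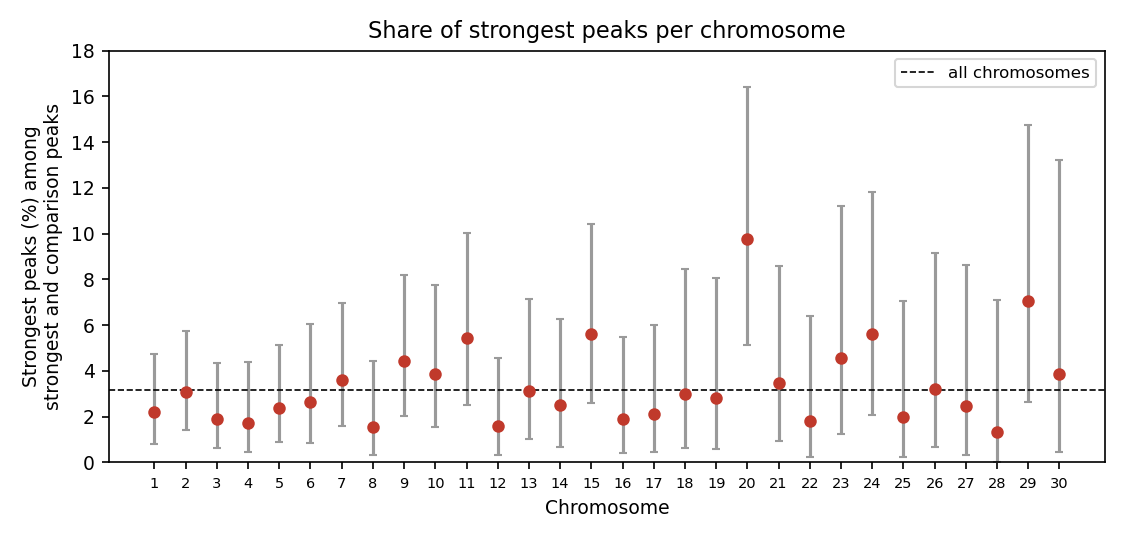
Points give the share (%) of strongest peaks among strongest and comparison peaks on each chromosome, bars the exact 95% interval, and the dashed line the share over all chromosomes, 3.16%. Chromosome 20, at 9.76%, is the only chromosome whose bar does not reach the line.

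Of the 12 members on chromosome 20, 8 lay in a stretch of 186 kb from 312376 to 498337 that holds 36 listed peaks. Members therefore made up 22.2% of that stretch, and the other 4 lay outside it. The 28 other listed peaks in the stretch had a median deprived mean of 269 normalised reads. Outside the stretch, the chromosome's peaks that were higher in deprived cells had a median of 242. The set inside leaves out the members and was not limited to peaks higher in deprived cells, so the sets were not drawn alike. On the other 29 chromosomes, no run of 36 consecutive listed peaks held more than 5 members, a count reached on chromosomes 11 and 29. The stretch was drawn around the members after their positions were seen.

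Along the chromosomes the members showed no single preferred position. With each chromosome divided into 5 equal parts between its outermost listed peaks, 30, 38, 30, 23 and 27 members fell in the parts in order of coordinate. The shares were 20.3%, 25.7%, 20.3%, 15.5% and 18.2%, against 17.2%, 22.0%, 22.4%, 22.0% and 16.4% of comparison peaks. In all 5 parts the share of comparison peaks lay inside the exact 95% interval of the members' share. Within 50 kb of an outermost listed peak lay 16 members, 10.8% (interval 6.31% to 17.0%), and 8.12% of comparison peaks.

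The median spacing of strongest and comparison peaks coincided at the threshold used. The distance from start to start to the nearest listed peak had a median of 3371 bp in both sets, with an exact binomial 95% interval of 3025 to 3784 bp for members and of 3299 to 3421 bp for comparison peaks. With a deprived log2 mean of at least 8.8 the medians were 3766 bp (interval 3381 to 3987 bp) and 3341 bp (interval 3277 to 3408 bp), so the coincidence depends on the threshold. Among peaks with a replete mean under 16, the median rose over the 4 classes of deprived mean below 512 normalised reads, from 3009 to 3264, 3447 and 3764 bp, and was 3363 bp from 512 to 609 and 3379 bp above. The quartiles at the threshold of 9 were 2521 and 4574 bp for members and 2433 and 4721 bp for comparison peaks. Under 2 kb from another listed peak lay 9 members (6.08%, exact Clopper-Pearson 95% interval 2.82% to 11.2%) and 520 comparison peaks (11.5%, interval 10.6% to 12.4%). Over 10 kb from any listed peak lay 2 members (1.35%) and 1.48% of comparison peaks. Taking the mean of the gaps on both sides, the medians were 5275 bp (interval 4939 to 5632 bp) and 4961 bp (interval 4885 to 5037 bp). None of these differences was tested.

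**Figure D5:**
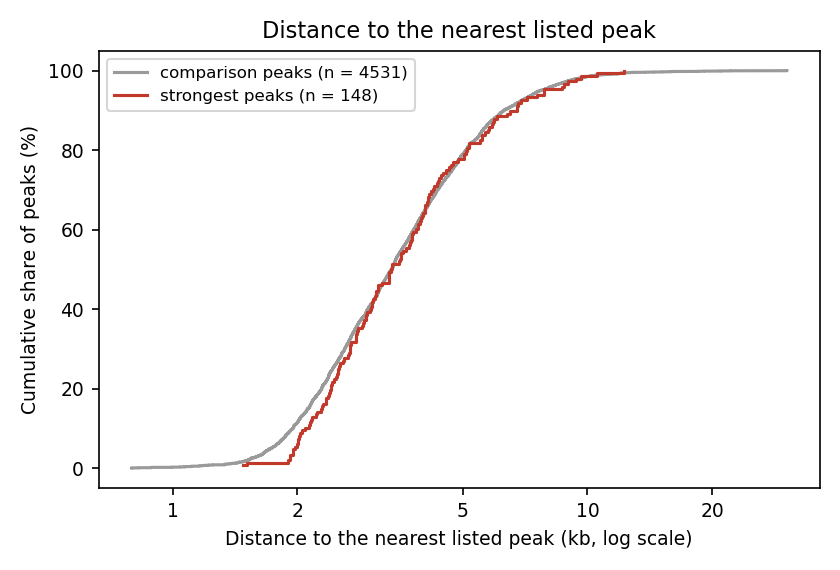
Curves give the cumulative share of peaks (%) by distance to the nearest listed peak in kb on a log axis, for strongest (red) and comparison peaks (grey). Both cross 50% at about the same distance, with medians of 3371 bp, and the red curve lies below the grey one under 2 kb.

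The members nearest to a listed peak were peak_2208 on chromosome 2 from 739303 to 739703, at 1476 bp, and peak_1351 on chromosome 15 from 298465 to 298865, at 1513 bp. Their neighbours were comparison peaks with deprived means of 196 and 144 normalised reads, against 609 ± 27.5 (SD, n = 3) and 559 ± 33.5 (SD, n = 3) in the members. The most isolated were peak_3533 on chromosome 29 from 580371 to 580771, at 12246 bp, and peak_575 on chromosome 11 from 333350 to 333750, at 10559 bp. Both had 0 reads in every replete library. Peak_3533 had 656, 618 and 559 deprived reads, and peak_575 had 618, 504 and 478. Strong peaks were thus found both beside much weaker ones and far from any.

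The share of members among nearest neighbours was close to their share among the listed peaks. The nearest listed peak was itself a member for 6 of 148 members, 4.05% (exact Clopper-Pearson 95% interval 1.50% to 8.61%), where members are 2.75% of the listed peaks and were nearest to 2.60% of the comparison peaks. It was a comparison peak for 124 members, another peak higher in deprived cells for 16 and a peak lower in deprived cells for 2. The nearest peak of a member had a median deprived mean of 252 normalised reads (quartiles 186 and 352), and that of a comparison peak one of 256 (quartiles 189 and 348). At the threshold of 9, members are 3.16% of both sets combined. With a deprived log2 mean of at least 8.8, 7.79% of members had another as nearest peak, where members were 8.51% of both sets combined. Nearest peaks were taken over all listed peaks, of which members are a smaller share than of both sets combined. The 8.51% is therefore too high a measure for the 7.79%. At 9.2 it was 0 of 46, where members were 0.983% of both sets combined. The share was 2.29% without deprived library A and at most 5.30% with any other single library left out.

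Of 5345 pairs of consecutive listed peaks, 9 joined members. Members are 2.75% of the listed peaks. Both peaks of such a pair must be members, so 2.75% is too high a measure for the share of pairs. The count of pairs was not tested. The closest such pair was peak_2485 on chromosome 20 from 475872 to 476272 and peak_2486, with starts 1953 bp apart. Peak_2485 had 586, 492 and 449 deprived reads and 10, 0 and 0 replete reads. The same pair lies beside peak_2487 on chromosome 20, 7410 bp further on, so that 3 members follow each other there. The next closest was peak_3460 on chromosome 29 from 157390 to 157790 and peak_3461 from 161133 to 161533, with starts 3743 bp apart and deprived means of 609 ± 56.6 and 527 ± 33.4 normalised reads (SD, n = 3). Peak_3459 precedes them at 16907 bp, which gives a second run of 3. Over all members, these pairs included, the nearest other member on the same chromosome lay at a median of 68362 bp (quartiles 35013 and 146761 bp) for the 147 members that share a chromosome with another.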

How the data were processed

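Per the submitters' processing notes, reads were handled with Trim Galore, BWA, Picard, deepTools and MACS2. The sources used here give no versions, no genome build, no name for the differential tool and no word on control subtraction. Per the file header, the authors deposited log2 mean levels per peak for deprived and replete libraries, a log2 fold change, a p-value and an FDR. A mean under 1 is listed as 0 and was rebuilt from the mean over both groups.

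From these means, whole reads per library were recovered. The worth of 1 read in each library was found from the 40 lowest distinct means and refined by least squares over more of the low means. Reads per peak were then solved with a relative tolerance of 1e-13 where the mean was listed above 0. Exactly 1 set of 3 whole numbers gave each mean in all 5375 peaks and both groups, means of 0 being set to 0 reads. Of 500 altered decoy means per group, 0 could be solved. Depth is known only within the listed peaks, and floors cover counting error only. Intervals are taken over peaks as if these were independent draws, and they do not cover the spread between libraries. Nothing shows that libraries A, B and C follow the replicate numbers.

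Members are peaks with a deprived log2 mean of at least 9 and a replete one under 4. The members, lists and comparisons were chosen with earlier results of these data known. Named peaks were the 10 highest, the 3 on each side of each threshold, the extremes of spacing, of variation and of replete reads in each library, and the highest member on the chromosomes with the highest and lowest share. Peaks are not replicates, so no test was run over them. Intervals are exact Clopper-Pearson for shares and exact binomial for medians, at 95%. Python 3.11.15, numpy 2.4.6, pandas 2.3.3, scipy 1.17.1 and numba 0.67.0 were used.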

Additional observations from a re-analysis of the deposited data

How the results depend on the processing

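The number of members followed the thresholds, with 398 at a deprived log2 mean of at least 8.8, 46 at 9.2 and 92 with a replete log2 mean under 3. The share of members listed at 0 in replete cells was 37.0% with the ceiling of 3, where that of comparison peaks was 42.5%. At 9.2 the shares were 30.4% and 30.5%, so the lower share of members was no longer seen, and 0% of members had a member as nearest peak. Without a ceiling the share was 18.8% of members (interval 13.4% to 25.2%) and 26.8% of comparison peaks. When all 3 libraries had to be at 0 the shares were 17.6% and 25.4%. The comparison share was 34.3% with equal reads in the listed peaks within each group, a scaling chosen after seeing the data. At 8.8 the median distances were 3766 and 3341 bp, and 7.79% of members had a member as nearest peak. The mean of both gaps gave 5275 and 4961 bp in place of the nearest distance. With each of the 6 libraries left out there were 121 to 174 members, with 22.7% to 56.7% of members and 30.7% to 62.7% of comparison peaks listed at 0, median distances of 3379 to 3614 bp and 3363 to 3392 bp, 2.29% to 5.30% of members with a member as nearest peak, and 29 to 30 chromosomes with a member. The highest shares at 0, 56.7% and 62.7%, came without replete library A. Of the 148 members, 125 were kept without deprived library A and 100 with unscaled reads. Chromosome 20 had 14.6% members at 8.8 and 4.88% at 9.2, against 8.51% and 0.983% over all chromosomes. Of 95 alternative values for the main results, 80 stayed within 1.5 times the reported count or inside its interval. No paired analysis was possible because no replicate number can be tied to a recovered library. The 19082 to 89564 reads of the replete libraries limit what can be said of differences among low replete levels.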

Other observations

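In the authors' deposited table the FDR of the members did not follow the number of replete libraries with reads in one direction. The median FDR in the authors' deposited table was 7.07e-19 for the 26 members with reads in 0 replete libraries, 1.26e-07 for the 66 with reads in 1, 6.22e-09 for the 46 with reads in 2 and 7.44e-21 for the 10 with reads in 3. Their median fold changes on the log2 scale, also from the authors' deposited table, were 11.26, 6.67, 5.80 and 5.28 in the same order. The lowest median FDR values were thus those of members whose replete libraries were all at 0 or all had reads. Comparison peaks had median FDR values of 8.94e-16, 8.53e-06, 2.21e-06 and 7.53e-13 in that order in the authors' deposited table. The libraries behind these values are the ones that chose the members.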
